A study of Mus musculus with 9 samples.

Results

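The genes described here are 10 transcription factors that steer granulocyte and monocyte development: the C/EBP family members Cebpa, Cebpb, Cebpd and Cebpe, and Spi1, Gfi1, Klf4, Runx1, Myb and Id2. They were chosen by name, as every probe whose annotated symbol is among these 10, which gave 21 probes of 45281 on the array. All 10 genes had at least 1 probe above background, among 10871 genes tested, and 17 of the 21 probes passed. RNA had been taken from spleen cells positive for Gr-1 (Ly6G), a surface antigen of neutrophils, that were sorted by MACS 7 days after the transplant to a stated purity above 97%, and was hybridised to Illumina bead arrays. The syngeneic group came from transplants without graft-versus-host disease (strain label C57BL/6), the WT group from allogeneic transplants into hosts with IDO1 (strain label C57BL/6), and the KO group from allogeneic transplants into IDO-deficient hosts (strain label B6.129-Ido1tm1Alm/J). Each group had 3 arrays. IDO1 begins the breakdown of tryptophan, and the study asked which pathways it regulates in myeloid cells. The sources used here give neither the donor strain, the age of the animals nor whether the cells were of donor or host origin. They do not say that each array is a different animal. The p-values therefore refer to the spread among arrays, and part or all of it may be technical.

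Neutrophils and monocytes arise from a shared bone marrow progenitor. PU.1, the product of Spi1, and C/EBP alpha open the myeloid programme, Gfi1 and C/EBP epsilon carry granulocytes through maturation, and Klf4 favours monocytes. C/EBP beta sustains granulocyte production during infection and inflammation, RUNX1 and MYB act in stem and progenitor cells, and Id2 binds E proteins and keeps them off DNA. Several of them, among them Id2, Runx1 and Myb, also act in lymphocytes and other blood cells.

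Several properties of the arrays bear on these genes. WT replicate 2 stood apart, with a correlation of 0.919 with each of the other WT arrays over genes, against 0.998 between those. Relative to the other WT arrays, the median of 10 tested neutrophil markers was -3.08 on the log2 scale in this array, that of 8 T cell markers 3.77 and that of 8 erythroid markers 3.71. Results are therefore given with it and, from a fit on the other 8 arrays, without it. Ly6g itself has no named probe here. The summed signal of the neutrophil markers (11 of 12 on the array, Mmp8 never above background) was 89845 to 96353 in syngeneic, 83898 and 84424 in the other WT and 99405 to 99800 in KO arrays, and 31106 in WT replicate 2. S100a8, S100a9 and Retnlg made up most of this sum. S100a8 alone was 23175 on WT replicate 2 and 24401 on WT replicate 3. T cell markers (10 of 12 on the array, Cd5 and Cd8a never above background) summed to 8889 to 9570 in syngeneic, 6867 and 7076 in WT and 11042 to 18865 in KO cells, and to 38966 in WT replicate 2. Cd8b1, at 4434 to 5865 on all 9 arrays, made up most of the sums on WT replicates 1 and 3. The sums therefore understate how far the other T cell markers differed. Erythroid markers (9 of 12 on the array, Rhd never above background) summed to 61443 to 62955 on syngeneic arrays, 9909 and 9083 on WT replicates 1 and 3, 51685 on WT replicate 2, and 1063 to 8757 on KO arrays. Without WT replicate 2, all 8 tested erythroid markers fell in both WT vs syngeneic and KO vs syngeneic (limma), and their part in the results on the factors was not tested. Ido1, the targeted gene, exceeded the background limit of 14.3 on 3 of 3 WT arrays (24.6, 33.8 and 20.0) and on 0 of 3 KO (-2.3, 0.65 and -8.1) and 0 of 3 syngeneic arrays (7.6, 3.9 and 13.3). Whether its probe lies in the deleted part is not known here. The KO arrays were on a chip of their own, while WT and syngeneic arrays shared the other chip, and an effect of the chip cannot be told apart from one of the KO group. Xist signals were above background on 0 of 3 KO arrays and on all 6 others, so a difference in sex cannot be told apart from one in genotype either.

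In the fit over all 9 arrays (limma, Benjamini-Hochberg adjustment over all genes, threshold 0.05), Id2 was lower in WT than in syngeneic cells and higher in KO than in WT cells, and Gfi1 was higher in KO than in syngeneic cells. The other 8 factors passed in no comparison. In KO vs WT 1 member of 10 rose and 0 fell, against 2.01% of all genes called (1.18% higher, 0.828% lower). In WT vs syngeneic 0 rose and 1 fell, against 10.4% (4.80% higher, 5.64% lower). In KO vs syngeneic 1 rose and 0 fell, against 11.9% (5.09% higher, 6.85% lower). Before adjustment, 2, 3 and 2 members in these comparisons had a limma p under 0.05. The members' median log2 fold change was 0.26 in KO vs WT, 0.16 in WT vs syngeneic and 0.16 in KO vs syngeneic, where the medians over all genes were -0.02, 0.04 and 0.02. Without WT replicate 2 the members' medians were -0.12, 0.37 and 0.16, and those over all genes -0.007, 0.04 and 0.02. The sign of the members' median in KO vs WT thus depended on that array. The 3 comparisons share groups and are not independent of each other.

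Without WT replicate 2 more members passed, as did more genes in general. In WT vs syngeneic 6 members rose (Cebpa, Cebpb, Cebpd, Gfi1, Klf4 and Runx1) and Id2 fell, against 29.6% of all genes called (14.6% higher, 14.9% lower). In KO vs WT 2 rose (Gfi1 and Id2) and 3 fell (Cebpa, Klf4 and Runx1), against 20.0% (10.2% higher, 9.78% lower). In KO vs syngeneic 3 rose (Cebpb, Gfi1 and Myb) and 0 fell, against 39.3% (19.3% higher, 20.0% lower). Cebpe and Spi1 passed in no comparison in this fit either.

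**Figure D1:**
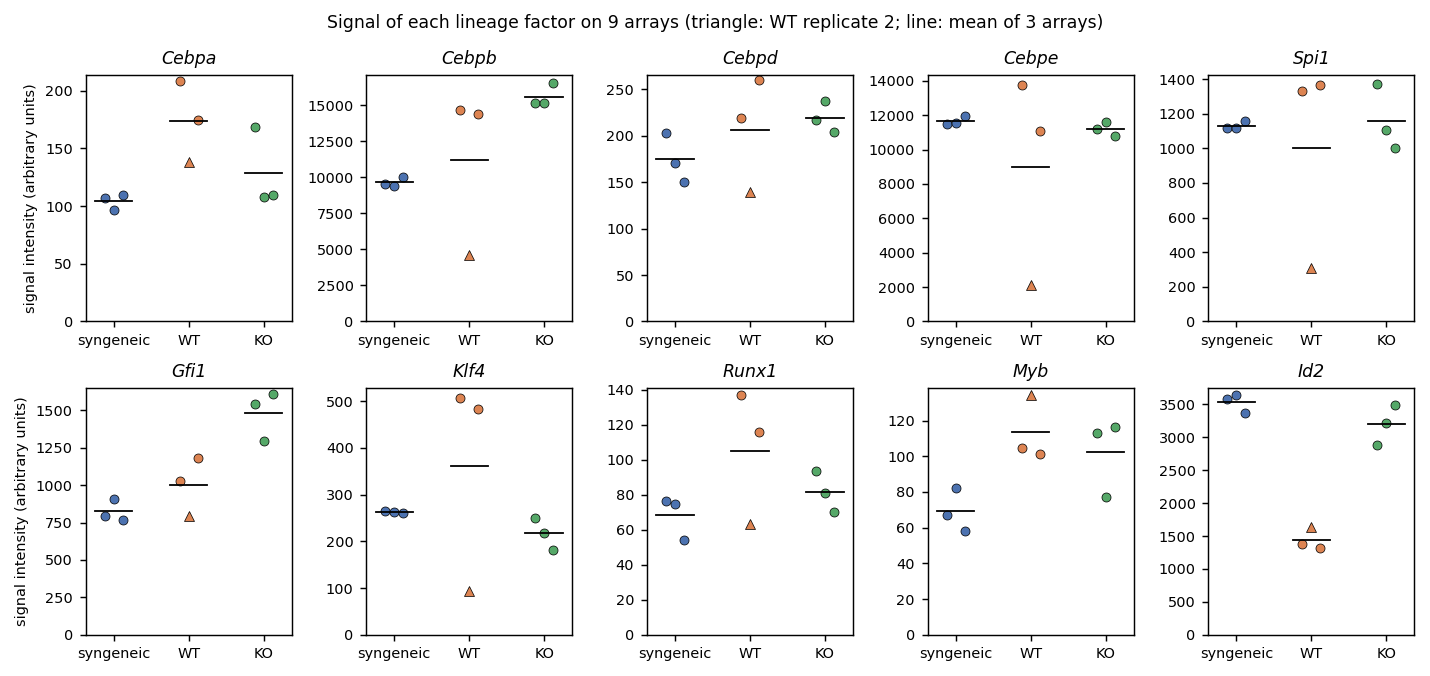
Signal intensity (linear axis from 0, arbitrary units) of the probe representing each of the 10 factors on the 9 arrays; circles are arrays, the triangle is WT replicate 2 and the line is the mean of 3 arrays. Id2 lies between 1322 and 1633 on the WT arrays and at 2887 or more on the others, while Cebpe, Spi1, Klf4 and Cebpb have their lowest value on WT replicate 2.

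Id2, the inhibitor of E proteins, is required for NK cells and other innate lymphocytes and for some dendritic cells. Its signals were 3588, 3635 and 3376 on the syngeneic arrays, 1376, 1633 and 1322 on the WT arrays, and 2887, 3216 and 3494 on the KO arrays. All 3 WT arrays lay below all others, and the KO and syngeneic ranges overlapped. Id2 fell in WT vs syngeneic by 1.26 ± 0.11 on the log2 scale (± SE, n = 3 arrays in each group, limma adjusted p = 0.000215), and it rose in KO vs WT by 1.11 ± 0.11 (adjusted p = 0.00413), or 2.16-fold. In KO vs syngeneic the difference was -0.14 (95% interval -0.39 to 0.10, adjusted p = 0.455). Leaving out WT replicate 2 gave -1.35 in WT vs syngeneic (adjusted p = 4.3e-07) and 1.20 in KO vs WT (adjusted p = 1.13e-05). The fall in WT cells passed in all 19 alternatives, with an adjusted p of at most 0.00281, and compares groups on the same chip. The rise in KO cells passed in 18 of 19, the exception being the fit on only the 6 arrays compared (adjusted p = 0.0851).

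The Id2 calls rest on 1 of its 3 probes. The probe with these signals is annotated to the cDNA AK013239. A second probe, annotated to the RefSeq transcript NM_010496, gave 116, 97.8 and 118 on syngeneic arrays, 115, 126 and 111 on WT arrays, and 142, 136 and 122 on KO arrays. Its log2 differences were 0.05 in WT vs syngeneic and 0.12 in KO vs WT (limma over all probes, adjusted p = 0.705 and 0.487), so the pattern of the bright probe was not seen there. The remaining Id2 probe was never above background. Why the probes differ was not tested. With the mean of the passing probes, Id2 differed by -0.60 in WT vs syngeneic and by 0.62 in KO vs WT, and both passed (limma adjusted p = 0.00154 and 0.0112).

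Monocyte and macrophage markers, 9 of 12 of them on the array and all 9 above background, had a summed signal that was also lowest on the WT arrays. It was 60961 to 63611 on syngeneic arrays, 9971, 3449 and 9764 on WT arrays, and 16486 to 19553 on KO arrays. C1qb, C1qc and Vcam1 made up most of this sum, and single markers differed from it. Ccr2 was 1058 to 1113 on syngeneic arrays, 1352, 228 and 1397 on WT arrays, and 368 to 559 on KO arrays, so that 2 WT arrays were the highest. Fcgr1 was likewise highest on WT replicate 1 (784). Cx3cr1 was 490 to 597 on syngeneic arrays, 70.9, 491 and 56.0 on WT arrays, and 53.2 to 112 on KO arrays. On WT replicate 2 it thus went against the sum. Other lists shared part of this pattern, and the neutrophil sum, mostly S100a8, S100a9 and Retnlg, was also lowest on the WT arrays. Single neutrophil markers differed from it. Il1r2 was 1181 to 1535 on syngeneic arrays, 1660, 105 and 1903 on WT arrays, and 3970 to 4953 on KO arrays. T cell, NK cell, B cell and dendritic cell sums were below both other groups on WT replicates 1 and 3, but highest on WT replicate 2. The dendritic cell sum was 347 to 380 on syngeneic, 60, 618 and 78 on WT, and 89 to 94 on KO arrays. In bulk RNA fewer cells of a type and less RNA per cell cannot be told apart, and the part of any of these cell types in the Id2 result was not tested. WT replicate 2, with the lowest macrophage sum and the highest T cell sum (38966) of the WT arrays, had an Id2 log2 signal 0.26 above the mean of the other WT arrays. Over the 9 arrays the named genes whose log2 signal was most like that of Id2 were Tgm2 (Pearson r = 0.985), Jak1 (0.974) and Oplah (0.971), as a description in which the points share arrays and groups. Such correlations over 9 arrays lean on WT replicate 2: over the other 8, none of the 3 genes named for Cebpb, Cebpe, Spi1, Klf4 or Runx1 was among the 3 most like that factor.

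The 300 bases around the annotated start sites of Id2 and Gfi1, called with all arrays, and of Cebpb and Klf4, with the largest other differences once WT replicate 2 was left out, are shown so that the letters can be set beside the levels. They run from 250 bases before to 50 after the start, 5′ to 3′, from RefSeq. RefSeq's table held 9 such windows for 7 of the 10 members. Cebpd, Cebpe and Spi1 are not shown. Capitals mark every match on either strand to 6 short motifs: TTGCNNAA for C/EBP proteins, GAGGAA for PU.1, TGTGGT for RUNX proteins, CAACNG for MYB, CCNCNCCC for Krueppel-like factors and TGACGTCA for CREB and ATF. Matches can overlap each other, and the motifs were chosen after the levels were known.
Id2 (GRCm38.p6, chr12:25096043-25096342, minus strand): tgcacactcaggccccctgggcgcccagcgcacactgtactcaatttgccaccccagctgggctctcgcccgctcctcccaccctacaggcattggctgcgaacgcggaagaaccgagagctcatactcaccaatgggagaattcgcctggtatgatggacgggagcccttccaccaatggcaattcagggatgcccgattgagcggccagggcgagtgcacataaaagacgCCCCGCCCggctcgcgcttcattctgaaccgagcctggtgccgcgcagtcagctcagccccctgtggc
Gfi1, upstream start (GRCm38.p6, chr5:107725756-107726055, minus strand): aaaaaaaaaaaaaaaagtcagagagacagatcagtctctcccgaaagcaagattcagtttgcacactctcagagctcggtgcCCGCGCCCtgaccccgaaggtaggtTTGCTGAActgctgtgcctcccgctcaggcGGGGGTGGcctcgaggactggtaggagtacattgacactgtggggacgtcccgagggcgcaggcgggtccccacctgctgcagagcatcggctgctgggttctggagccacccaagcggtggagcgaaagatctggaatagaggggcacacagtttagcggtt
Cebpb (GRCm38.p6, chr2:167688665-167688964, plus strand): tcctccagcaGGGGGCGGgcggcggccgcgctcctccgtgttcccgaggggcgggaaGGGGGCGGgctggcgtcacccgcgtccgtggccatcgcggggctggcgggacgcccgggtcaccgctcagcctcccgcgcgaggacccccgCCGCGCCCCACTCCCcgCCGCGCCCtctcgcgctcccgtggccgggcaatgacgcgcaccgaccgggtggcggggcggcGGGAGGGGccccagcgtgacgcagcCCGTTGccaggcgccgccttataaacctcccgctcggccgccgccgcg
Klf4 (GRCm38.p6, chr4:55532426-55532725, minus strand): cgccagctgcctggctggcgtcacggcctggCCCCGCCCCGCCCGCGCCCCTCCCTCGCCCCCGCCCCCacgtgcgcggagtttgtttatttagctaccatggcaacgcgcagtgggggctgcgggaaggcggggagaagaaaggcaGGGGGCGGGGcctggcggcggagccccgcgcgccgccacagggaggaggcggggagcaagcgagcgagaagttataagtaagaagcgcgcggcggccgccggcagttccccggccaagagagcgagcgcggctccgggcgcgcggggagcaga
In the Id2 window the sole match is to the Krueppel-like motif. The upstream Gfi1 window holds a C/EBP match, TTGCTGAA, at position -143 from the start, and 2 Krueppel-like matches. The other Gfi1 window (chr5:107724294-107724593) is not printed and holds 1 Krueppel-like match and no C/EBP match, and the upstream one was printed for its C/EBP match. The Cebpb window holds 6 Krueppel-like matches and a MYB match, and the Klf4 window 9 Krueppel-like matches, the first 7 of which form a run of overlapping matches. The Krueppel-like motif occurs in 49.5% of 32851 promoter windows of this length, the C/EBP motif in 10.8%, the MYB motif in 35.0%, the RUNX motif in 16.8%, the PU.1 motif in 28.3% and the CREB and ATF motif in 1.79%. Of the 7 members with a window, 7 hold the Krueppel-like motif, 3 the MYB motif, and 1 each the C/EBP, PU.1 and RUNX motifs. The CREB and ATF motif is in 0 of 7. A match is a description of letters, not a bound site.

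Gfi1, a zinc finger repressor that neutrophil maturation requires, had signals of 796, 907 and 770 on syngeneic arrays, 1028, 796 and 1182 on WT arrays, and 1545, 1292 and 1608 on KO arrays. All KO arrays lay above all arrays of the other groups, while WT and syngeneic overlapped through WT replicate 2. Gfi1 rose in KO vs syngeneic by 0.79 ± 0.15 (limma adjusted p = 0.0114), or 1.73-fold. The call ended without syngeneic replicate 1 (adjusted p = 0.0535), syngeneic replicate 3 (0.056) or KO replicate 3 (0.0514). In KO vs WT the difference was 0.55 ± 0.15 (adjusted p = 0.107). On the 8 other arrays Gfi1 rose by 0.40 ± 0.11 in KO vs WT (adjusted p = 0.0265) and by 0.39 ± 0.11 in WT vs syngeneic (adjusted p = 0.0195), so that the order of levels was syngeneic, WT, KO. Gfi1 is represented by a single probe. The genes most like it were Plac8 (r = 0.984), Yipf1 (0.966) and F7 (0.959).

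Among the C/EBP factors, Cebpb had signals of 9552, 9433 and 10042 on syngeneic arrays, 14670, 4615 and 14373 on WT arrays, and 15132, 15171 and 16545 on KO arrays. KO arrays were above all others, and only WT replicate 2 lay below the syngeneic arrays. With all arrays the difference was 0.69 ± 0.39 in KO vs syngeneic (limma adjusted p = 0.313) and 0.04 in WT vs syngeneic (0.964). On the 8 other arrays Cebpb rose in both, by 0.69 ± 0.07 (adjusted p = 1.46e-05) and by 0.58 ± 0.08 (adjusted p = 0.00019). The fit on only the 6 KO and syngeneic arrays has the same KO difference from the same arrays and differs only in not using the WT spread. There the KO rise passed too (limma adjusted p = 6.5e-05), which is not separate support. Between KO and the other 2 WT arrays the difference was 0.10 (95% interval -0.07 to 0.28, adjusted p = 0.401). Napsa (r = 0.992), Slc28a2 (0.992) and Tmem268 (0.991) were most like Cebpb.

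Cebpa, which granulocyte progenitors need, had signals of 107, 96.6 and 109 on syngeneic arrays, 208, 138 and 174 on WT arrays, and 168, 108 and 110 on KO arrays. The WT arrays lay above all syngeneic arrays, and KO replicate 1 lay within the WT range. The WT vs syngeneic difference was 0.48 ± 0.15 (limma adjusted p = 0.0769). It passed without WT replicate 2 (0.59, adjusted p = 0.00414) or KO replicate 1 (adjusted p = 0.0439). In KO vs WT Cebpa differed by -0.30 ± 0.15 (adjusted p = 0.31), and without WT replicate 2 it fell by 0.41 (adjusted p = 0.0379). H1f5 (r = 0.974), Ssr4 (0.973) and Pigf (0.966) were most like it.

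Cebpd, a factor induced in acute inflammation, had signals of 203, 171 and 150 on syngeneic arrays, 219, 139 and 260 on WT arrays, and 218, 237 and 204 on KO arrays. The KO arrays lay just above the highest syngeneic array, and the WT arrays spanned both groups. With all arrays no difference passed (limma adjusted p = 0.405 to 0.794). The rise in WT vs syngeneic without WT replicate 2 was 0.35 ± 0.11 (adjusted p = 0.0299). A second Cebpd probe was never above background. Coro1c (r = 0.964), Gtpbp8 (0.941) and Dock1 (0.919) were most like it.

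Cebpe, which drives the genes of secondary granules, was measured by 4 probes above background. On the brightest the signals were 11464, 11531 and 11932 on syngeneic arrays, 13784, 2117 and 11103 on WT arrays, and 11187, 11613 and 10817 on KO arrays. WT replicate 2 was far below all others, and the other arrays of the 3 groups overlapped. No comparison passed, with or without that array. Without it the 95% intervals were -0.12 to 0.30 in WT vs syngeneic, -0.35 to 0.07 in KO vs WT and -0.24 to 0.13 in KO vs syngeneic. The 4 probes did not fully agree: in the fit over all probes without WT replicate 2, the second brightest fell by 0.41 in KO vs WT (adjusted p = 0.00391) and by 0.31 in KO vs syngeneic (adjusted p = 0.00413), where the others had adjusted p of 0.0749 to 0.599 and 0.481 to 0.999. Capg (r = 0.995), Pglyrp1 (0.994) and Ntng2 (0.994), the second an antibacterial protein of neutrophil granules, were most like Cebpe over the 9 arrays.

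**Figure D2:**
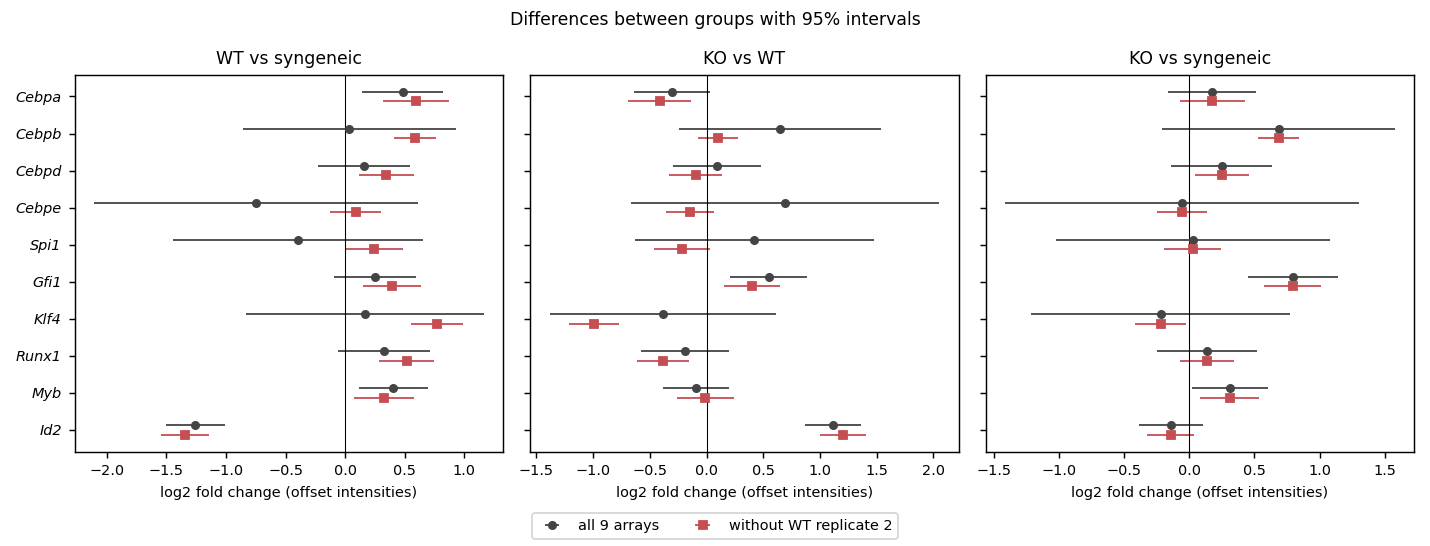
Log2 fold change (horizontal axis, offset intensities) of each factor in 3 comparisons with its 95% interval, from all 9 arrays (grey circles) and without WT replicate 2 (red squares). Id2 differs from 0 in WT vs syngeneic and in KO vs WT in both fits, and the intervals of Cebpe, Spi1, Klf4 and Cebpb shorten most when WT replicate 2 is left out.

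Spi1 had signals of 1117, 1119 and 1156 on syngeneic arrays, 1331, 310 and 1364 on WT arrays, and 1374, 1105 and 1005 on KO arrays. WT replicate 2 was the lowest array, and the KO arrays spanned the syngeneic range. No comparison passed in limma with all arrays (adjusted p = 0.609 to 0.983) or without that array (0.13 to 0.868). Gpr137 (r = 0.997), Milr1 (0.991) and Nupr1 (0.991) were most like it.

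Klf4, which monocyte differentiation requires, had signals of 265, 262 and 260 in syngeneic, 507, 92.8 and 483 in WT, and 250, 218 and 182 in KO cells. The WT arrays thus held both the highest and the lowest values, and the KO arrays lay below the syngeneic ones. With all arrays the differences were 0.17 ± 0.43 in WT vs syngeneic and -0.39 ± 0.43 in KO vs WT (limma adjusted p = 0.831 and 0.666). On the 8 other arrays Klf4 rose by 0.77 ± 0.10 in WT vs syngeneic (adjusted p = 0.000112) and fell by 0.99 ± 0.10 in KO vs WT (adjusted p = 5.91e-05). Its other 2 probes gave 0.64 and 0.78, and -0.89 and -0.86, in these comparisons, each past the threshold in the fit over all probes (adjusted p = 0.000219 to 0.00151). In KO vs syngeneic the difference was -0.22 (adjusted p = 0.0694 without WT replicate 2). Nqo2 (r = 0.985), Niban2 (0.980) and Phlda1 (0.977) were most like Klf4.

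**Figure D3:**
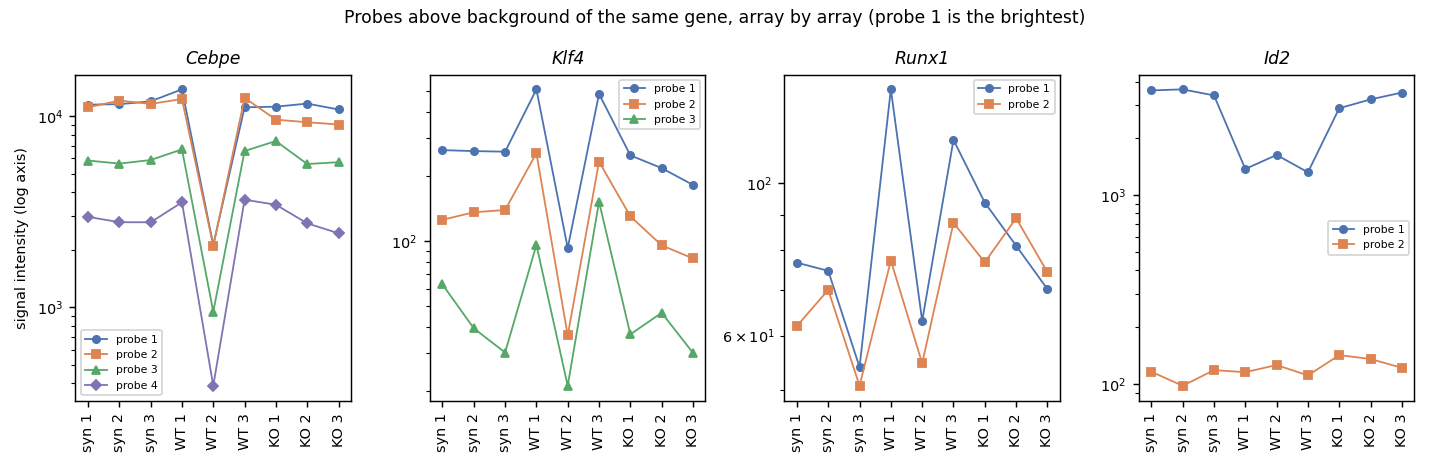
Signal intensity (log axis, arbitrary units) of each probe above background of Cebpe, Klf4, Runx1 and Id2 on the 9 arrays (syn, syngeneic), with a line per probe. All 4 Cebpe and 3 Klf4 probes drop on WT replicate 2, whereas the dimmer Id2 probe stays between 97.8 and 142 while the brighter falls on the WT arrays.

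Runx1, the DNA-binding partner of CBF beta, had signals of 76.6, 74.5 and 54.0 in syngeneic, 137, 63.0 and 116 in WT, and 93.7, 81.1 and 70.1 in KO cells. The groups overlapped through WT replicate 2 and through the KO arrays. Without that array Runx1 rose by 0.52 in WT vs syngeneic (limma adjusted p = 0.00304) and fell by 0.38 in KO vs WT (0.0253), against 0.33 and -0.19 with all arrays (0.248 and 0.575). Its second probe did not pass in either comparison without WT replicate 2 (0.23 and -0.02, adjusted p = 0.0876 and 0.89). Sbsn (r = 0.947), Rnase6 (0.943) and Rab9 (0.935) were most like it.

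Myb, which keeps progenitors dividing and is shut off as granulocytes mature, had signals of 67.3, 82.2 and 58.1 on syngeneic arrays, 104, 134 and 101 on WT arrays, and 113, 77.3 and 117 on KO arrays. The WT arrays lay above all syngeneic arrays, and KO replicate 2 lay within the syngeneic range. The differences were 0.41 ± 0.13 in WT vs syngeneic and 0.31 ± 0.13 in KO vs syngeneic (limma adjusted p = 0.083 and 0.168). On the 8 other arrays Myb rose in KO vs syngeneic (adjusted p = 0.032), while WT vs syngeneic had an adjusted p of 0.0538. The probe with signal is annotated to the cDNA AK036518, and the 2 probes annotated to the RefSeq transcript NM_010848 were never above background. Fbxo46 (r = 0.974), Eif3k (0.962) and Kif15 (0.946), a mitotic kinesin, were most like Myb.

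The factors differed in how far WT replicate 2 lay from the other WT arrays. Relative to the mean of WT replicates 1 and 3, its log2 signal was -2.51 for Cebpe, -1.91 for Spi1, -1.82 for Klf4 and -1.64 for Cebpb, beside the median of -3.08 for neutrophil markers and -1.55 for monocyte and macrophage markers. It was -0.57 for Runx1 and for Cebpd, -0.44 for Gfi1 and -0.33 for Cebpa. For Myb and Id2 it was 0.25 and 0.26. Progenitor markers, 4 of which were tested, had a median of 1.90 and summed to 4735 on this array, against 504 to 642 on the other 8. Kit (2968) and Gata2 (1495) made up most of that sum, Meis1 was 221 and Cd34 51, and Flt3 was never above background. The median of the eosinophil, basophil and mast cell list, 6 genes of which were tested, was similar at 1.84. The part of other cells in these values was not tested.

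**Figure D4:**
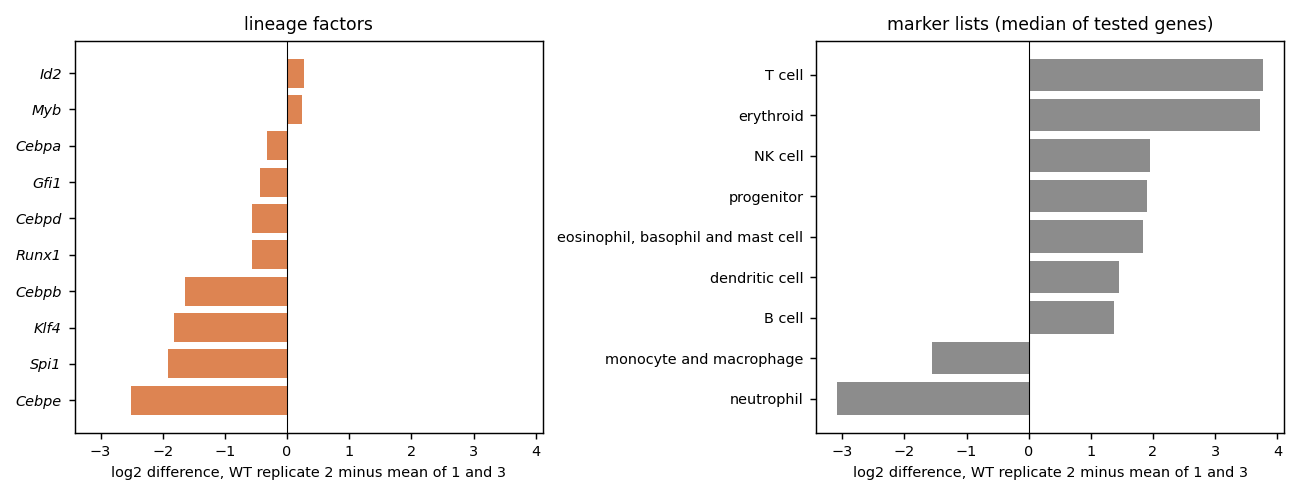
Log2 signal of WT replicate 2 minus the mean of WT replicates 1 and 3, for the 10 factors (left) and as the median of the tested genes of 9 marker lists (right). Cebpe, Spi1, Klf4 and Cebpb are far below 0, as are neutrophil markers, and Id2 and Myb are slightly above 0.

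Counted by array, 3 members had no overlap between the groups in KO vs WT (3 higher, 0 lower), against 23.4% of all genes (10.8% higher, 12.6% lower). The count was 3 in WT vs syngeneic (2 higher, 1 lower), against 38.5% (21.9% higher, 16.6% lower), and 4 in KO vs syngeneic (3 higher, 1 lower), against 49.3% (24.9% higher, 24.5% lower). Over the 8 arrays without WT replicate 2, Id2 and Klf4 had a Pearson r of -0.93, Id2 and Runx1 -0.89, Id2 and Cebpa -0.88, Cebpa and Runx1 0.89, and Cebpb and Gfi1 0.89. These describe arrays that fall into 3 groups.

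Relatives and partners of the members, 24 of 30 listed genes tested, had 2 genes higher and 0 lower in KO vs WT. They had 0 higher and 2 lower in WT vs syngeneic, and 0 higher and 2 lower in KO vs syngeneic. Of all genes, 2.01%, 10.4% and 11.9% were called in these comparisons. Among the 24 tested, 5, 7 and 2 had an unadjusted limma p under 0.05. Ets2, an ETS factor related to PU.1, rose in KO vs WT by 0.74 ± 0.14 (adjusted p = 0.0461). Klf3, a repressor of the Klf4 family, fell in WT vs syngeneic by 0.71 ± 0.19 (adjusted p = 0.0484). Tcf4, an E protein that plasmacytoid dendritic cells need and that Id2 can bind, fell in KO vs syngeneic by 1.34 ± 0.31 (adjusted p = 0.0271). Spic, the PU.1 relative of red pulp macrophages, was the remaining gene called and passed in all 3 comparisons, with a mean signal of 9463 over the syngeneic, 458 over the WT and 2567 over the KO arrays. For Id2 the KO vs syngeneic difference was not called, and Id2 and Spic were not compared by a test. The counts without WT replicate 2 were 5 higher and 3 lower in KO vs WT, 5 and 8 in WT vs syngeneic, and 4 and 6 in KO vs syngeneic, where 20.0%, 29.6% and 39.3% of all genes were called.

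Other haematopoietic lineage factors, 26 of 34 tested, had 0 called by limma in KO vs WT (6 at an unadjusted p under 0.05), beside 2.01% of all genes. They had 2 higher and 1 lower in WT vs syngeneic, beside 10.4%, and 3 higher and 2 lower in KO vs syngeneic, beside 11.9%. Egr1, an early response factor linked to monocyte differentiation, rose in WT vs syngeneic by 1.43 ± 0.21 (limma adjusted p = 0.00423) and in KO vs syngeneic by 1.08 ± 0.21 (0.0133). Myc rose in WT vs syngeneic by 1.06 ± 0.27 (0.0459). Batf3, needed for cross-presenting dendritic cells, fell in these comparisons by 0.63 ± 0.09 (0.00417) and 0.48 ± 0.09 (0.0127). In KO vs syngeneic Etv6 rose by 0.53 ± 0.11 (0.0208), Stat3, which relays G-CSF signals, rose by 0.53 ± 0.12 (0.0303), and Zeb2, a factor of monocytes and dendritic cells, fell by 1.09 ± 0.28 (0.0443). Leaving out WT replicate 2 gave 3 higher and 5 lower in KO vs WT, 4 and 8 in WT vs syngeneic, and 8 and 10 in KO vs syngeneic. In that fit 20.0%, 29.6% and 39.3% of all genes were called.

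Genes listed as targets of some of these factors, with no direction of regulation assumed, were counted in 3 lists. They are to be read beside the share of all genes called (2.01% in KO vs WT, 10.4% in WT vs syngeneic and 11.9% in KO vs syngeneic). Of 8 tested secondary granule genes, limma called 0 in each comparison (0 at an unadjusted p under 0.05 in each). Their median was 0.76 in KO vs WT and -0.59 in WT vs syngeneic, and 0.15 and -0.04 without WT replicate 2. Of 6 primary granule genes, Ms4a3, a marker of granulocyte and monocyte progenitors, rose in KO vs syngeneic by 0.84 ± 0.12 (adjusted p = 0.00294), and 0 passed in KO vs WT and WT vs syngeneic (1 and 2 at an unadjusted p under 0.05). Of 7 receptor targets, Csf1r, the receptor of macrophage colony-stimulating factor and itself a macrophage marker, fell in WT vs syngeneic by 2.05 ± 0.41 (adjusted p = 0.0169), and 0 passed in KO vs WT and KO vs syngeneic (0 and 1 at an unadjusted p under 0.05). Without WT replicate 2, where 20.0%, 29.6% and 39.3% of all genes were called, the secondary granule list had 1 gene higher and 0 lower in KO vs WT, 1 and 2 in WT vs syngeneic, and 2 and 1 in KO vs syngeneic. The primary granule list had 1, 2 and 1 genes higher and 0 lower in these comparisons. The receptor list had 0 higher and 1 lower, 0 and 2, and 1 and 2, with Csf1r lower in KO vs syngeneic (-1.37 ± 0.09, limma adjusted p = 2.39e-07).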

How the data were processed

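For each of 45281 probes the deposited table gives an intensity and a detection p-value on 9 arrays. Per the submitters' processing notes GenomeStudio was used; the sources used here give no version or settings. No source states the normalization, but the deposited intensity values reach the same maximum of 47219 on every array and go down to -21.0, as after background subtraction and quantile normalization. The series matrix holds deposited log2 values, which equal log2 of these intensities within 1.1e-06 and leave out the 35.6% at or below 0. The deposited detection p-values entered no filter or test, because they do not follow the signals. Of 4289 probes with a mean signal over 1000, 152 had a mean detection p-value over 0.05. The highest value over the arrays was 0.396 to 0.934 on the 4 Cebpe probes and 0.532 on the Spi1 probe. On the probe that stood for Runx1 the values ran from 0.062 to 0.652.

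Intensities were corrected with limma 3.58.1 (normexp, offset 50) in R 4.3.3 and quantile-normalized, so fold changes of dim genes are understated. The background limit of 14.3 was the 95th percentile of the signals of 1614 probes whose genes encode sensory receptors or keratin-associated proteins. It was set with earlier results known. Probes above it on at least 3 of 9 arrays were kept (20747), and the brightest stood for each of 10871 genes. Symbols came from the platform annotation, with 34885 probes of 1 symbol, 18 of several and 10378 unnamed, and 1 listed gene was matched by an older symbol. The fit had 1 mean per group and no covariate, eBayes moderation and Benjamini-Hochberg adjustment over all genes. It was also run on simulated data with known shifts, independent noise and no outlying array. That setting is unlike these data with WT replicate 2. The number of arrays limits the precision.

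All 10 members are named, as are up to 6 called genes of each of 5 related lists per comparison and the 3 genes most like each member. Marker sums add the brightest probe of each gene, negative signals as 0. Members and lists were chosen with earlier results of these data known. Alternatives covered background correction, offset, normalization, filter, probe choice, the deposited log2 values, arrays in the fit, array weights, the replicate number as a block, and each array left out.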

Additional observations from a re-analysis of the deposited data

How the results depend on the processing

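The 10 members gave 570 values under 19 alternatives in 3 comparisons. Of these 538 kept their side of the threshold, 28 newly passed it, 4 no longer passed it and 0 called values changed sign. Among values called neither way, 18 had the other sign. All of the 28 except Cebpa in WT vs syngeneic without KO replicate 1 (adjusted p = 0.0439) came from fits that left out or down-weighted WT replicate 2. By higher and lower members, array weights gave 2 and 3 in KO vs WT, 7 and 1 in WT vs syngeneic, and 3 and 0 in KO vs syngeneic. Only the 6 arrays compared gave 0 higher in KO vs WT and 3 higher in KO vs syngeneic. Leaving out each array in turn gave 1 to 2 higher and 0 to 3 lower in KO vs WT, 0 to 6 higher in WT vs syngeneic, and 0 to 3 higher in KO vs syngeneic, with the highest counts without WT replicate 2, and with Id2 lower in WT vs syngeneic each time (1 member).

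Counts over all genes (main values 128 higher and 90 lower in KO vs WT, 522 and 613 in WT vs syngeneic, 553 and 745 in KO vs syngeneic) moved more. Without background correction 48 were lower in KO vs WT. The deposited log2 values gave 53 higher and 36 lower in KO vs WT, 405 lower in WT vs syngeneic and 485 lower in KO vs syngeneic. Only the 6 arrays compared gave 1 and 1, 296 and 402, and 1941 and 2059. Array weights gave 1424 and 1542, 2363 and 2007, and 2305 and 2284. The replicate block gave 21 and 10 in KO vs WT, 274 higher in WT vs syngeneic and 367 higher in KO vs syngeneic, and it changed no call of a member (adjusted p = 0.0322 for Id2 in KO vs WT). Deviations of same-numbered arrays had correlations of -0.17 to 0.11. Arrays with different numbers were not compared in this way, so whether the numbers pair the arrays is not settled. Leaving out each array in turn gave 24 to 1114 higher and 9 to 1063 lower in KO vs WT, 159 to 1591 and 326 to 1624 in WT vs syngeneic, and 261 to 2099 and 389 to 2171 in KO vs syngeneic. The causes were not tested. The offset of 50 is large beside the signals of dim probes such as those of Runx1 and Myb, which shrinks their fold changes. The slide as a block could not be fitted, because the KO arrays have a chip to themselves.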
